A study of Homo sapiens with 6 samples.

Results

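The 6 Schlafen genes of human chromosome 17 (SLFN5, SLFN11, SLFN12, SLFN13, SLFN12L and SLFN14) stand side by side, and 1 of them, SLFN11, was also supplied to K562 cells as a transgene. Open chromatin over the stretch that holds all 6 (hg19 chromosome 17 from 33550000 to 33900000, 350 kb) was read from ATAC-seq peak lists, and every listed interval in it was taken. There were 3 such intervals among 48967 in the 6 lists, and all 3 lay at 1 place. None lay on SLFN11 (33677324 to 33700720) in any list, so no narrow site on its exons was there to be told apart from its promoter.

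K562 is an established human leukaemia line, and ATAC-seq inserts sequencing adapters into accessible DNA with a transposase. The samples were wild-type SLFN11 overexpressing cells with camptothecin (CPT, 1000 nM for 4 h) or with DMSO, E669Q SLFN11 overexpressing cells with CPT or with DMSO, and vector control cells with CPT or with DMSO, 1 library each. The sources used here do not give the promoter that drives the transgene, nor whether each line is a clone. With 1 library per group no difference has a replicate check and no test between single groups was made. The label of the cells as lymphoblasts was not checked against marker genes, because no hg19 gene annotation was used here.

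Schlafen proteins are a mammalian family that shares an N-terminal core, and several of them cleave or bind RNA. The longer members SLFN5, SLFN11, SLFN13 and SLFN14 also carry a helicase-like ATPase domain. SLFN11 binds stressed replication forks and blocks their progress, which makes cells that express it sensitive to drugs such as CPT, an inhibitor of topoisomerase I. Its E669Q form carries a substitution in that ATPase domain. SLFN11 is switched off in many cancer lines, often with a methylated promoter.

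The promoters are shown because a cDNA transgene would cover exons alone and could not give an interval there, though the labels do not say which form the transgene has. RefSeq promoter sequences were found for 3 of the 6 genes. Each is the 250 bases before the gene start on GRCh38.p14, 5′ to 3′ on the minus strand, with CpG dinucleotides in capitals. They lie at chr17:35373622-35373871 for SLFN11, chr17:35433175-35433424 for SLFN12 and chr17:35537679-35537928 for SLFN12L, in a build other than that of the lists.
SLFN11: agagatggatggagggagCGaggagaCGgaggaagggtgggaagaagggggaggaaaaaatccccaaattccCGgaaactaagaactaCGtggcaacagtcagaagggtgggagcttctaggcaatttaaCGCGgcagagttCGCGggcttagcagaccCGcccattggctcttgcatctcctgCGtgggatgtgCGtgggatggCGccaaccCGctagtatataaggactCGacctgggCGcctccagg
SLFN12: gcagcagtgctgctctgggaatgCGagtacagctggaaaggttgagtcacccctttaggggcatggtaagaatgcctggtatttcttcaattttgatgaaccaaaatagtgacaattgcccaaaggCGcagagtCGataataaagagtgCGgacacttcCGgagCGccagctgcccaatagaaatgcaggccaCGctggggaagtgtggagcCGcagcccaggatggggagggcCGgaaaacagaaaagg
SLFN12L: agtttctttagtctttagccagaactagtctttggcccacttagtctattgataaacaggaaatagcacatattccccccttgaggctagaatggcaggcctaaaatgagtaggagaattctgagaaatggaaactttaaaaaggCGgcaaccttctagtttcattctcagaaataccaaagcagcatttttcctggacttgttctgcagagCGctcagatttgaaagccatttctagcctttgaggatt

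The 3 promoters differed in CpG content. SLFN11 had 15 CpG in its 250 bases, and 42.9% of 35116 RefSeq promoters had at least as many. SLFN12, which forms a complex with the phosphodiesterase PDE3A, had 9 CpG (54.1% of promoters had at least as many). SLFN12L had 2 (85.3%), and the median over all promoters was 11. Of the 3, SLFN11 thus had the most CpG and SLFN12L the fewest.

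SLFN11 held no interval in any of the 6 lists: 0 in wild-type SLFN11 cells with CPT, 0 with DMSO, 0 in E669Q cells with CPT, 0 with DMSO, and 0 in vector cells with CPT and 0 with DMSO. Nor was there an interval within 5 kb of either end, which takes in the promoter. The lists of the lines that carry the transgene thus had the same count here as the vector lists. An empty stretch of this length was the usual state in these sparse lists. The genome was divided into bins as long as SLFN11 (23397 bases), and those with at least 1 interval were 4.03% in wild-type SLFN11 cells with CPT and 7.96% with DMSO. They were 8.31% in E669Q cells with CPT and 5.92% with DMSO, and 4.19% in vector cells with CPT and 3.83% with DMSO. On chromosome 17 alone the shares in the same order of lines were 6.23% with CPT and 10.0% with DMSO, 10.5% with CPT and 6.40% with DMSO, and 3.20% with CPT and 2.68% with DMSO. The absence over SLFN11 therefore does not set the gene apart from most stretches of its length.

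**Figure D1:**
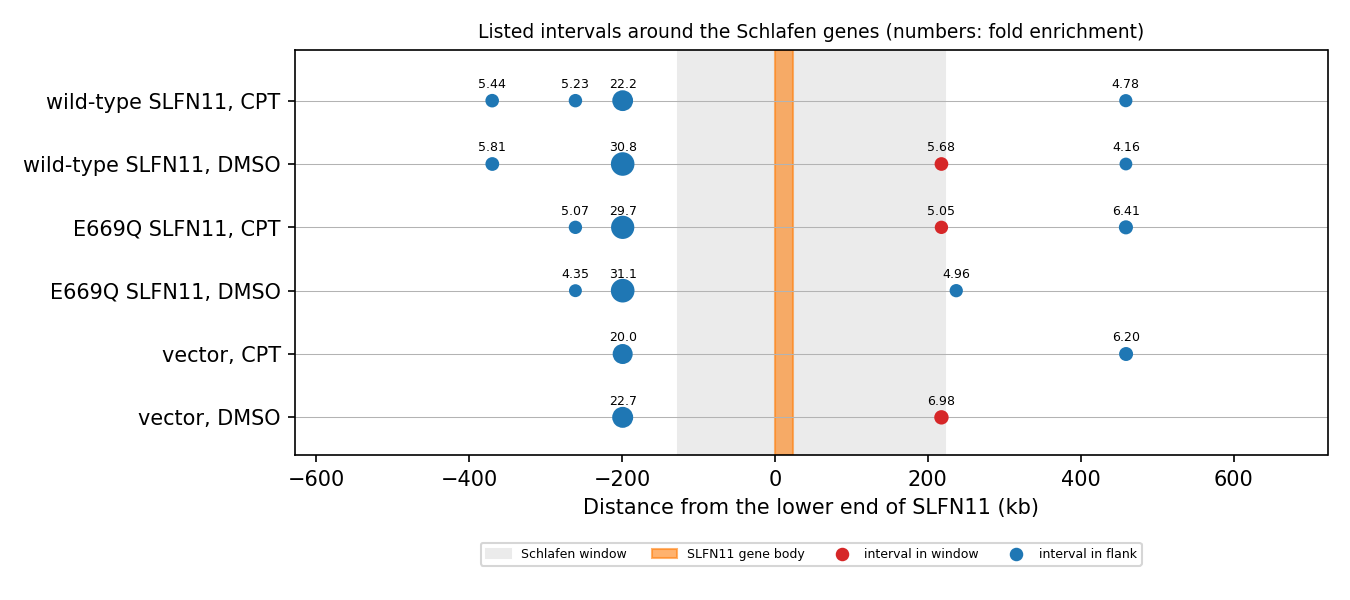
Each row is 1 library, and each point is a listed interval placed by the distance of its summit from the lower end of SLFN11 in kb, sized and numbered by the authors' fold enrichment. The SLFN11 body (orange) is empty in all 6 rows, and the window (grey) holds 1 interval each (red) in wild-type SLFN11 cells with DMSO, E669Q cells with CPT and vector cells with DMSO.

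The lists also set a limit on what could be seen. From the authors' fold and −log10 p, a summit pileup (the number of mapped pieces stacked at the summit) and a local background could be recovered for nearly all entries (98.7% to 99.3% in the 6 libraries). The lowest listed pileup was 4 in wild-type SLFN11 cells with CPT, 5 with DMSO, 6 in E669Q cells with CPT and 5 with DMSO, and 5 in vector cells with CPT and 4 with DMSO. A stretch of SLFN11 with fewer pieces than this would be in no list. Over a higher local background the limit is higher. Signal from the transgene, or from the gene's own promoter, was thus not listed, which does not show that either was closed. Whether depth was the reason was not tested. The sources used here do not say whether 1 piece is a read or a read pair.

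The nearest listed intervals lay at least 194 kb from SLFN11 in every library. On the side of lower coordinates the nearest interval was 199 kb away in each of the 6 lists. On the other side it was 435 kb away in wild-type SLFN11 cells with CPT and 194 kb with DMSO, 194 kb in E669Q cells with CPT and 214 kb with DMSO, and 436 kb in vector cells with CPT and 194 kb with DMSO. The stretch around SLFN11 without an interval was thus 417 to 658 kb long. It was longest, at 658 kb, in the wild-type SLFN11 and the vector library with CPT. Those 2 lists held 5562 and 5806 intervals, where the 6 lists held 5246 to 12337. How common stretches of this length are in such lists was not computed, so the distance is not shown to be particular to SLFN11.

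SLFN5, a nuclear member known as a repressor of transcription, SLFN12, SLFN13, which cleaves transfer and ribosomal RNA, SLFN12L and SLFN14, an endoribonuclease of reticulocytes and platelets, are all inside the window. The window had an interval at 1 place alone, so outside that place no Schlafen gene had a listed interval. Without an hg19 annotation the place was not assigned to a gene. It lay about 4.9 kb inside the upper end of the window and 194 kb beyond SLFN11. In RefSeq order SLFN14 is the last Schlafen gene on that side.

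The interval spanned 33894961 to 33895105 (145 bp) in wild-type SLFN11 cells with DMSO. It spanned 33894980 to 33895099 (120 bp) in E669Q cells with CPT. In vector cells with DMSO it spanned 33894991 to 33895127 (137 bp). The 3 intervals shared 109 bp and their summits, at 33895086, 33895075 and 33895089, lay within 14 bp of each other. They were narrow, with the median width of a list at 234 to 283 bp. In the 3 lists 12.7%, 6.79% and 5.34% of intervals were narrower, and the narrowest had 109, 102 and 128 bp.

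Fold enrichment, the authors' ratio over local background, was 5.68 in wild-type SLFN11 cells with DMSO and 5.05 in E669Q cells with CPT, and 6.98 in vector cells with DMSO. It stood in the weaker part of both SLFN11-line lists, where 62.8% and 77.4% of intervals had a higher fold, and in the stronger part of the vector list, where 27.0% had. The authors' −log10 q-value was 4.57 in wild-type SLFN11 cells with DMSO, 3.64 in E669Q cells with CPT and 6.41 in vector cells with DMSO, where the lists end near 2.00.

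The recovered pileup at the summit was 8 in each of the 3 libraries (exact Poisson 95% interval 3.45 to 15.8, for counting error only). The median pileup of the list was 11 in wild-type SLFN11 cells with DMSO, 11 in E669Q cells with CPT and 8 in vector cells with DMSO. In the same order 19.2%, 12.9% and 40.2% of intervals had a lower pileup. By pileup the interval was thus not in the stronger part of the vector list. The libraries differed in depth, as estimated from the background values of the lists. Relative to vector with DMSO (1.00) it was 1.72 for wild-type SLFN11 with DMSO and 2.22 for E669Q with CPT. Divided by depth, the pileup was 4.65 (2.01 to 9.16) in wild-type SLFN11 cells with DMSO and 3.60 (1.56 to 7.10) in E669Q cells with CPT, against 8.0 (3.45 to 15.8) in vector cells with DMSO. These intervals hold counting error in single libraries and are no test between them. Each pileup is of a place that had already passed the limit of its list. The local background was 0.585, 0.784 and 0.289 in the same order, which is 1.47, 1.61 and 1.32 times the lowest of its list. At the same pileup of 8, the 3 folds thus differ through this background alone.

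The place was in no list of wild-type SLFN11 cells with CPT, E669Q cells with DMSO or vector cells with CPT. At a background of 1.32 to 1.61 times the lowest, a pileup of at least 5 would be needed there in wild-type SLFN11 cells with CPT. At least 5 to 6 would be needed in E669Q cells with DMSO, and at least 5 in vector cells with CPT. Divided by depth these limits are 4.59, 3.76 to 4.51, and 4.59. All of these limits are above the lowest of the depth-scaled pileups, 3.60 in E669Q cells with CPT, and below the others, 4.65 in wild-type SLFN11 cells with DMSO and 8.0 in vector cells with DMSO. By these point values, the lowest level falls short of the pileup limits of the 3 libraries, while 8.0 passes them. The Poisson ranges of all 3 levels reach across these limits, so the absence cannot be decided from pileup. Width is a further limit: the narrowest interval had 128, 118 and 116 bp in these 3 lists, in the same order. The interval of E669Q cells with CPT had 120 bp.

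**Figure D2:**
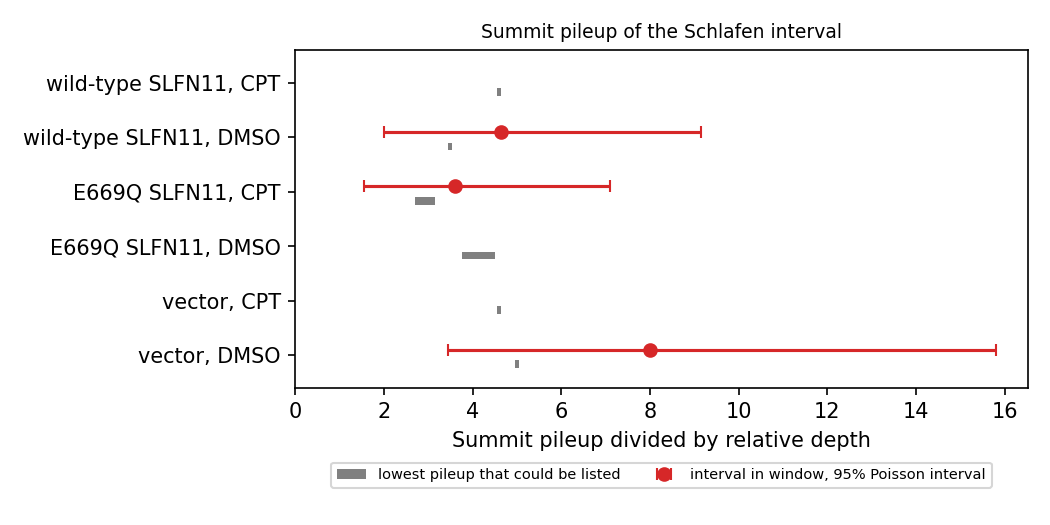
Red points give the summit pileup of the interval divided by the relative depth of its library, with bars for the exact Poisson 95% interval, and grey marks give the lowest pileup that could be listed there at the same scale. The 3 points stand at 4.65, 3.60 and 8.0, and the grey marks of the 3 libraries without the interval, at 3.76 to 4.59, are above the lowest point and below the other two.

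Set by treatment, the interval was absent with CPT and present with DMSO in the wild-type SLFN11 line. In that line 59.5% of all DMSO intervals were absent with CPT. In the E669Q line it was present with CPT and absent with DMSO, as were 45.2% of all its CPT intervals. In the vector line it was absent with CPT and present with DMSO, as were 39.5% of all its DMSO intervals. Such a change was thus common in each line. Its direction differed between the 2 SLFN11 lines, and this difference was not tested. With −log10 q of at least 5, and also in lists of matched length (the 5246 strongest intervals of each by −log10 p), all 4 SLFN11-line lists had 0 intervals here. These cutoffs removed the interval from both SLFN11 lines, so a change could not be read there either way. The matched length is that of the whole vector list with DMSO, which was therefore left uncut.

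Set by line, the interval was present in 2 of 4 SLFN11-line lists and in 1 of 2 vector lists. With −log10 q of at least 5, and also at matched length, it was in 0 of 4 and 1 of 2. At matched length the vector list with DMSO was not cut, so its interval could not be lost there. With CPT it was in the E669Q list and not in the vector list, as were 60.5% of E669Q intervals. With DMSO it was in the wild-type SLFN11 list, absent from the E669Q list, and in the vector list. Of the vector intervals with DMSO, 15.4% were absent from the wild-type SLFN11 list and 29.9% from the E669Q list. Over the genome 199 of 17466 merged regions (1.14%) had the same pattern, in these 3 lists and no others.

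The window as a whole was sparse, with no more than 1 interval in any list. In holding an interval at all, it was near the background of the lists. Among bins of 350 kb, those with at least 1 interval were 35.4% in wild-type SLFN11 cells with CPT and 49.9% with DMSO, 52.6% in E669Q cells with CPT and 44.5% with DMSO, and 36.0% in vector cells with CPT and 34.7% with DMSO. On chromosome 17 the shares were 47.6% and 62.8%, then 64.1% and 51.5%, then 32.0% and 31.2% in that order. Over the genome, bins with exactly 1 interval were 17.3% in wild-type SLFN11 cells with DMSO, 18.5% in E669Q cells with CPT and 19.7% in vector cells with DMSO. The other filled bins held more. The window held 1 interval in 3 of 6 lists. By estimated depth, the 2 deepest libraries were among them, and so was the shallowest.

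**Figure D3:**
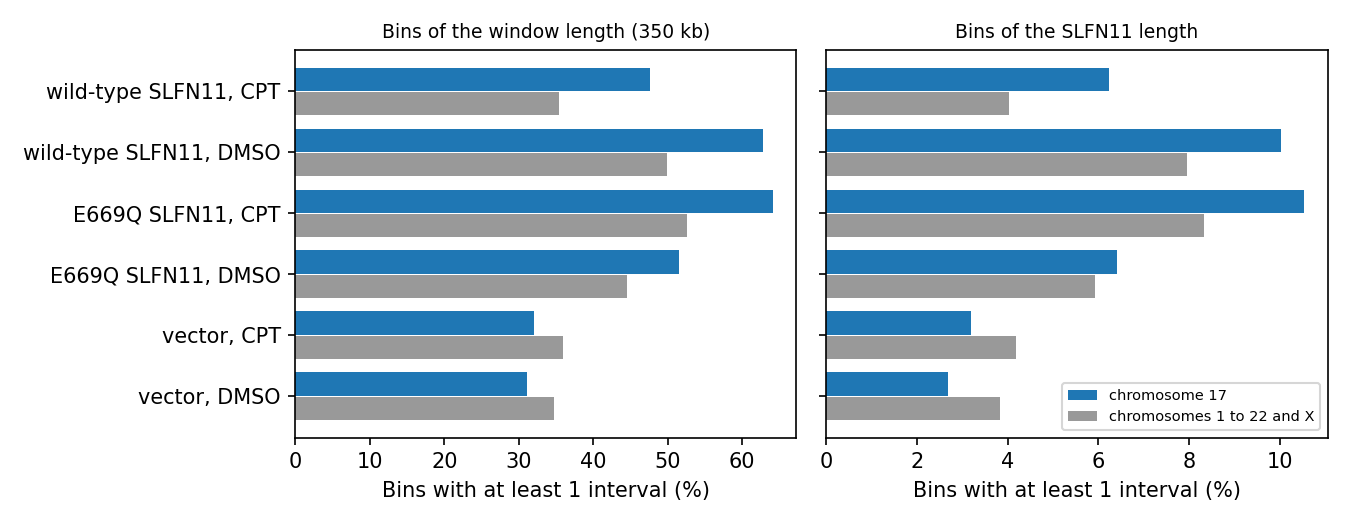
Bars give the percentage of bins with at least 1 listed interval in each library, for bins of 350 kb (left) and of the length of SLFN11 (right), on chromosome 17 (blue) and over chromosomes 1 to 22 and X (grey). Over the genome 34.7% to 52.6% of 350 kb bins and 3.83% to 8.31% of SLFN11-length bins held an interval.

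The pattern looked for with the transgene is presence in all 4 SLFN11-line lists and in neither vector list. Relative depth was 1.09 in wild-type SLFN11 cells with CPT and 1.72 with DMSO, and 2.22 in E669Q cells with CPT and 1.33 with DMSO. In vector cells it was 1.09 with CPT and 1.0 with DMSO. Transgene, line and depth cannot be told apart in this pattern. Over the genome 540 of 17466 merged regions (3.09%) had that pattern. None was in the Schlafen window. Chromosome 17 held 34 of them (6.30%). It held 2.79% to 4.03% of all intervals in the 4 SLFN11-line lists, and in the vector lists 2.0% with CPT and 1.81% with DMSO. The pattern is thus taken from the lists with the higher shares. The share of chromosome 17 among all merged regions was not computed. The nearest to SLFN11 lay 3260 kb away, from 36955831 to 36956323, with a lowest fold over the 4 lists of 4.57. Ranked by that lowest fold, the first was chrX:23685437-23685903, where it was 7.76. The next was chr15:101626187-101626771 at 7.37, then chr1:25071467-25072008 at 7.24. A lowest fold of 7.20 was found at chr16:88772576-88773118 and one of 7.19 at chr2:24149698-24150335. These 5 were 467 to 638 bp wide, and none had a gene assigned here.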

How the data were processed

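The authors deposited 1 narrowPeak list per library. Per the submitters' processing notes the build was hg19 and the tools included MACS2 2.1.2, Picard 2.9.2, SAMtools 1.8, Bowtie2 2.2.6 and Trimmomatic 0.39, with neither role nor setting given. The deposited columns hold the authors' fold enrichment (a ratio over local background), their −log10 p and −log10 q-values, a score made from the q-value, and the summit offset. Read totals are not given in the sources used here.

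Distinct intervals were counted, each with its summit of highest fold, in 1-based hg19 coordinates. Intervals overlapping by at least 1 bp were shared. Pileup and background were solved from fold and −log10 p by the MACS2 formula (pseudocount 1), and kept where they met −log10 p within 0.001. For relative depth, the lowest background of a list was divided by a fitted step. The step was the one, within a preset range, whose multiples lay closest to the low background values of that list. Relative depth is thus an estimate and not a count of reads. Counts with CPT and DMSO were also paired by line, chosen after seeing the data. The scripts were tested on simulated data. RefSeq tables (GRCh38.p14) gave promoter sequences and gene order.

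The members and lists were chosen with earlier results of these data known. The rule for named items was every interval in the window, and the 5 regions with the transgene pattern and the highest lowest fold. Computation used matplotlib 3.10.9, scipy 1.17.1, pandas 2.3.3 and numpy 2.4.6 under Python 3.11.15.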

Additional observations from a re-analysis of the deposited data

How the results depend on the processing

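The count of SLFN11 sites in SLFN11-line lists alone was 0 as deposited and 0 with −log10 q of at least 5, with fold of at least 5, at matched length (the 5246 strongest intervals of each list), with each summit counted and with an overlap of at least 0.5 of each interval. With −log10 q of at least 5, and also at matched length, the count in the Schlafen window was 0 in wild-type SLFN11 cells with DMSO and 0 in E669Q cells with CPT, while that of vector cells with DMSO stayed at 1. With fold of at least 5, and with each summit counted, no count moved. On the SLFN11 body alone all counts were 0, where the window had 1 in each of 3 lists. Widened windows were chosen after seeing the data. With 50 kb more on each side E669Q cells with DMSO had 1 interval. With 500 kb more there were 4 intervals in wild-type SLFN11 cells with CPT and 4 with DMSO, 4 in E669Q cells with CPT and 3 with DMSO, and 2 in vector cells with CPT and 2 with DMSO. No fold or pileup could be given at SLFN11 sites, since there were none. The alternatives above are counts of intervals, and none was run for the fold or pileup of the interval in the window. Replicate numbers give no pairing, since each group is 1 library. Paired by line, the count in the window with CPT minus that with DMSO was -1 in wild-type SLFN11, 1 in E669Q and -1 in vector cells. An exact two-sided sign-flip test over these 3 lines could not give a p-value below 0.25. It would also take lines that differ in what they carry as replicates, so it cannot decide whether CPT changed the count.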

Other observations

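The nearest interval to SLFN11 on the side of lower coordinates, outside the Schlafen window, was in all 6 lists and among the strongest of each. It began between 33478107 and 33478117 on hg19 chromosome 17 and was 162 to 214 bp wide. Its fold was 22.2 in wild-type SLFN11 cells with CPT and 30.8 with DMSO, 29.7 in E669Q cells with CPT and 31.1 with DMSO, and 20.0 in vector cells with CPT and 22.7 with DMSO. Its rank by fold was 11 to 24 in its list. Its pileup divided by depth was 66.1 in wild-type SLFN11 cells with CPT and 124 with DMSO, 102 in E669Q cells with CPT and 157 with DMSO, and 55.0 in vector cells with CPT and 64.0 with DMSO. Its local background was 8.43 (vector cells with CPT) to 19.5 (E669Q cells with DMSO) times the lowest of its list. No list of regions known for artefact signal was applied here, and whether the interval marks open chromatin was not tested.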
